A study of Homo sapiens with 18 samples.

Results

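Long intergenic noncoding RNAs are transcripts of genes that lie between protein-coding genes and hold no long open reading frame, and 138 of them were expressed in the human HEK-293T libraries described here. A member had a symbol made of LINC and a number and a mean of at least 1 CPM over all 18 libraries (CPM is the count per 1000000 counts of the library). The table held 2184 such LINC symbols among 59251 genes, 1178 of them had a count above 0 in any library, and 138 met the rule. Members were thus chosen by their measured mean level, and levels are given as a description.

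The study concerns a split form of Csy4, a bacterial endoribonuclease of CRISPR systems that cuts RNA at a short hairpin, which is put back together by grazoprevir, a small-molecule inhibitor of a hepatitis C virus protease. The design asks how the split and the reassembled enzyme change the transcriptome of HEK-293T cells, a line from human embryonic kidney that carries a viral large T antigen, relative to the full-length enzyme. Poly(A) RNA was sequenced from 3 libraries in each of 6 groups, and 70000 cells were plated in each. The first 3 groups were not transfected and received DMSO, the solvent, labelled as 0.5 µM, grazoprevir at 0.5 µM, or rapamycin, an inhibitor of the mTOR kinase, at 0.1 µM. The other 3 groups were transfected with full-length Csy4 and given 0.5 µM DMSO (labelled wtCsy4), with split Csy4 and given 0.5 µM DMSO (SplitCsy4_DMSO, here untriggered split Csy4), or with split Csy4 and given 0.5 µM grazoprevir (SplitCsy4_Grazoprevir, here triggered split Csy4). Those agents were added 6 hours after transfection. No group received a transfection without Csy4, so transfection, construct and enzyme differ together between transfected and untransfected cells and cannot be told apart. The labels do not say whether replicates came from separate cultures, so p-values here reflect just the variation among these libraries, which may be technical.

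Many long noncoding RNAs are spliced, capped and polyadenylated like messenger RNAs but are present at fewer copies, and a large share stay in the nucleus. Some act where they are made, by opening or silencing nearby chromatin or through the act of transcription itself, and others act away from their gene by binding proteins or small RNAs. For most genes with a LINC number no function is established, and the number only records the order of naming.

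The libraries held 12362101 to 19095828 counts in all. Of the counts in a library, 0.0906% to 0.107% fell on members, and no member was at 0 in any library. Replicates correlated at 0.995 to 0.996 on log2 CPM. Grazoprevir replicate 1 stood somewhat apart from its group, with a chi-square per gene of 3.68 and 4.81 against its partners, where the other replicate pairs ranged from 1.86 to 2.85. Of the marker genes for the labelled line, 4 of 5 reached 1 CPM (VIM was at 377 CPM), and NEFM was below 0.1 CPM. Their summed level, given below by group, is mostly that of VIM. Fibroblast markers reached 1 CPM for 3 of 6 genes (COL1A1, COL3A1 and LUM) with COL1A2 below 0.1 CPM, and epithelial markers for 2 of 6 (CDH1 and MUC1). Of the blood markers, CD3E and HBG1 were at 0 and PTPRC was below 0.1 CPM.

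The members were mostly low. Their mean levels ran from 1.00 to 69.0 CPM with a median of 3.18 CPM, where the median of all 17966 tested genes was 15.8 CPM. Only 22 members reached 10 CPM and 5 reached 50 CPM, 69 lay from 2 to 10 CPM and 47 lay below 2 CPM. The 8 highest, in order of CPM, were LINC00641, LINC02693, LINC01000, LINC00205, LINC00674, LINC00294, LINC00342 and LINC01278. Per kilobase of exonic sequence the order differed among the 125 members with a length in GENCODE release 29. LINC02693 and LINC01000 had no such length and were not ranked. LINC00674 stood first at 71.6 CPM per kilobase, from 52.5 CPM over 734 bases. It was followed by LINC02815 at 15.2, LINC02315 at 13.7 and LINC00641 at 12.1 CPM per kilobase. LINC00598 was the lowest ranked, at 0.0596 CPM per kilobase. The SDs over all 18 libraries were 6.05 for LINC00674, 2.88 for LINC02815, 2.17 for LINC02315 and 4.09 for LINC00641 in the same unit. LINC00674 stood apart. These SDs include differences between groups, so the order of the following 3 within a group was not assessed.

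Precision followed the level. The median coefficient of variation between replicates was 28.9% for members below 2 CPM, 16.2% from 2 to 10 CPM and 8.04% from 10 CPM. At the threshold itself, LINC02589, LINC00471 and LINC00896 had means of 1.05, 1.04 and 1.00 CPM, and LINC02361, LINC01001 and LINC01140, just below it and left out, had means of 0.971, 0.969 and 0.965 CPM. In all 6 groups 108 members had a mean of at least 1 CPM, and 10 reached that in at most 3 groups: LINC00471, LINC00598, LINC00896, LINC01116, LINC01411, LINC01508, LINC01619, LINC02086, LINC02367 and LINC02589. For 9 members the mean over the other 15 libraries was below 1 CPM when 1 group was left out, so the rule drew on that group. Without full-length Csy4, LINC02086 went from 2.09 to 0.905 CPM, LINC01411 to 0.922 and LINC00471 to 0.982 CPM, and for them a high level with full-length Csy4 is part of how they were chosen. The same holds for LINC00598 and LINC02928 with untriggered split Csy4, LINC00896 and LINC01116 with grazoprevir, and LINC02367 and LINC02589 with rapamycin, and LINC00896 also drew on untriggered split Csy4. Comparisons of these members that include the group they drew on are given as values with no p, and where they were called they are counted among the calls but support nothing.

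**Figure D1:**
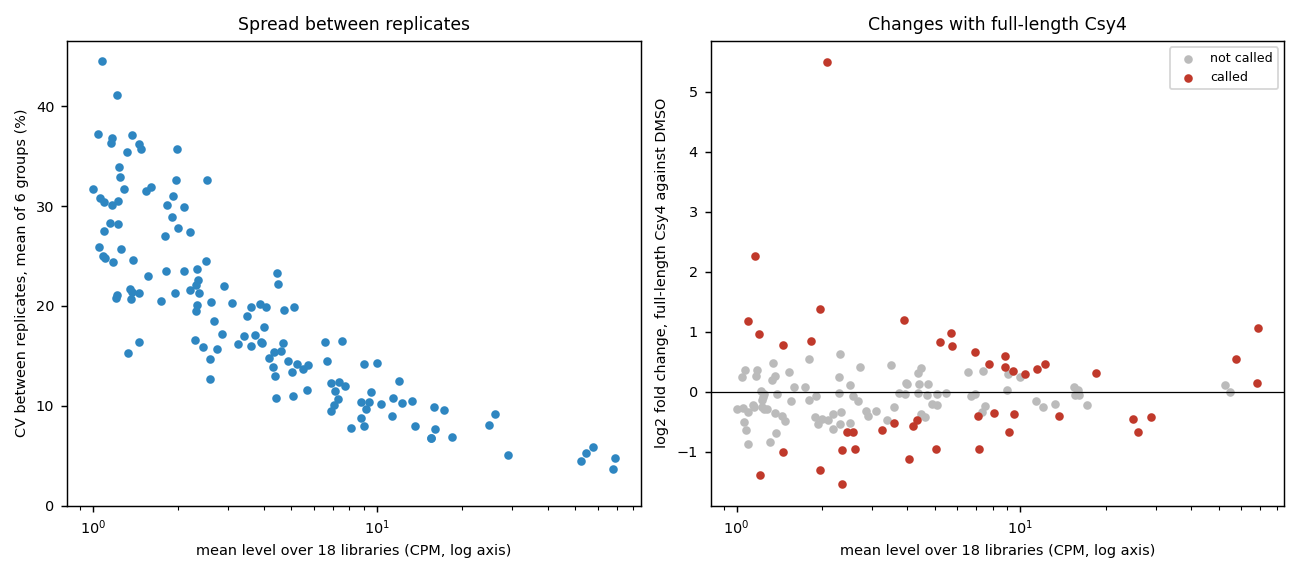
Left, the mean level of each of the 138 members (CPM, log axis) against its replicate coefficient of variation (percent, mean of the 6 groups). Right, the level against the log2 fold change of full-length Csy4 against DMSO, with members called by the test in red. The spread falls from a median of 28.9% below 2 CPM to 8.04% from 10 CPM, and small differences were called only at the higher levels.

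By annotation the members are a mixed class. Of the 125 that matched GENCODE release 29, 89 were listed as intergenic noncoding RNA, 15 as processed transcripts, 9 as antisense, 2 as bidirectional promoter transcripts and 10 as transcribed pseudogenes. RefSeq (GRCh38.p14) gave a position for 136 members, 130 by their current symbol and 6 by an older one. LINC02246 is now named ASMER1. In RefSeq LINC02804 is found only as an older symbol of the protein-coding gene GPR89B, so its counts may not be those of a noncoding RNA. LINC02804 also matched a GENCODE gene of 588 exonic bases, and which of these genes was counted is not known. The median exonic length was 2929 bases, with a range of 323 to 18352 bases, in a median of 5 exonic blocks. Chromosome 1 held 17 members, chromosome 7 held 13, and chromosomes 2 and 21 held 9 each. A few carry a small RNA in their span, among them LINC00461 (MIR9-2, a precursor of the brain microRNA miR-9), LINC02603 (MIRLET7D) and LINC00888 (SNORA63D and SNORA63E).

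Distances to protein-coding genes varied widely. The median distance to the nearest one was 21830 bp, 24 members lay within 5 kb of it, 24 lay over 100 kb away and 12 overlapped it. Of the 131 with a known arrangement, 53 lay downstream on the same strand, 29 lay head to head, 20 upstream on the same strand and 17 tail to tail. Sequence copies limit some counts: 21 members share over 20% of their exonic 50-mers with other transcripts, led by LINC01123 (92.2%), LINC02603 (82.6%) and LINC01145 (81.7%). Exons of another gene cover over 20% of the exonic bases of 12 members, among them LINC01089 (51.3%) and LINC02246 (43.3%). Whether counting used the strand is not given in the sources used here, so reads of such a member and of its overlapping partner cannot be told apart.

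The highest group mean of a member was a median of 1.67 times its lowest, and over 2 times for 38 members. Rapamycin held the highest group mean for 49 members, DMSO for 27, grazoprevir for 25, full-length Csy4 for 20, untriggered split Csy4 for 9 and triggered split Csy4 for 8. The summed level of all members, in CPM with the TMM factors of the fit, was 939.9 ± 14.8 CPM (SD, n = 3) with DMSO, 941.3 ± 18.6 CPM with grazoprevir, 939.1 ± 6.89 CPM with untriggered split Csy4 and 932.0 ± 13.6 CPM with triggered split Csy4. It was 1057 ± 23.3 CPM with rapamycin and 992.9 ± 28.2 CPM with full-length Csy4, and both groups' libraries lay above all DMSO libraries. LINC00641 alone went from a mean of 45.9 CPM with DMSO to 96.1 CPM with full-length Csy4. Against DMSO, 84 members had a negative log2 fold change with full-length Csy4 and 54 a positive one, so the higher sum is not a rise of most members. The 5 members with the most counts made up 33.7% to 35.3% of member counts in transfected libraries and 26.8% to 29.8% in untransfected ones, and those ranges did not overlap.

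Full-length Csy4 against DMSO asks which members differ when cells receive the whole enzyme. A gene was called where its adjusted p in edgeR's quasi-likelihood test was below 0.05 over all 17966 tested genes. With full-length Csy4, 23 members were called higher and 23 lower, 33.3% of the 138, and 46.9% of all tested genes were called. Among tested genes at 1 to 10 CPM the share was 32.9%, and 30.2% of the 116 members below 10 CPM were called, a share near that of genes at their level. By direction the background was 22.9% higher and 24% lower. The median log2 fold change was -0.08 over the members and -0.01 over all tested genes. Scaling by library size alone moved the median of all tested genes to 0.06, and the split of member calls to 29 higher and 18 lower.

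LINC02086 differed most. It gave 0.159, 0.188 and 0.137 CPM with DMSO, from 8 counts in all, and 7.95, 7.46 and 7.69 CPM with full-length Csy4. All 3 full-length libraries lay far above every DMSO library, and they were also above every library of the 4 other groups. The gene lies on chromosome 17 at chr17:48642627-48707346 on the plus strand (GRCh38.p14), 11320 bp upstream of PRAC2, whose own log2 fold change was 0.00 (adjusted p = 0.999).

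LINC00641, the most abundant member, gave 44.1, 46.5 and 47.1 CPM with DMSO and 95.2, 99.1 and 94.1 CPM with full-length Csy4. The log2 fold change was 1.07 ± 0.057 (SE, adjusted p = 6.76e-28). The groups did not overlap, and no alternative ended this call. CPM is a share of the RNA of a whole culture, so fewer cells making an RNA and less of it per cell cannot be told apart. It lies on the minus strand at chr14:21200079-21206900, 2247 bp downstream of HNRNPC on the same strand. HNRNPC, which encodes a nuclear protein that binds nascent transcripts, fell by 0.18 ± 0.030 on the log2 scale (adjusted p = 6.66e-07) and was far more abundant, at a mean of 1420 CPM.

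Further rises were of lower members. LINC02246 went from 1.80, 3.01 and 1.51 CPM with DMSO to 4.80, 4.51 and 5.23 CPM, a log2 fold change of 1.20 ± 0.23 (adjusted p = 6.32e-06). LINC01588 went from 0.953, 1.63 and 1.37 CPM to 2.92, 4.24 and 3.09 CPM, a log2 fold change of 1.39 ± 0.31 (adjusted p = 9.81e-05). For both, every library with full-length Csy4 lay above every DMSO library. LINC02804 is found in RefSeq only as an older symbol of the protein-coding gene GPR89B. It gave 4.39, 4.32 and 3.78 CPM with DMSO and 7.05, 8.74 and 8.76 CPM with full-length Csy4. The log2 fold change was 0.97 ± 0.17 (adjusted p = 7.24e-07). LINC01963, which lies 10596 bp downstream of the DNA repair gene XRCC5, gave 4.34, 3.32 and 3.23 CPM and then 5.47, 6.25 and 7.69 CPM (0.83 ± 0.18, adjusted p = 8.65e-05). XRCC5 itself had a log2 fold change of -0.00 (adjusted p = 0.952). LINC01347, which shares 64.9% of its 50-mers with other transcripts, was called at 0.96 ± 0.36 (adjusted p = 0.0233), and the call was lost without DMSO replicate 1 (adjusted p = 0.116), without wtCsy4 replicate 2 (0.0664) and without wtCsy4 replicate 3 (0.052). LINC01411 gave 0.370, 0.438 and 0.618 CPM with DMSO and 2.10, 2.49 and 2.27 CPM with full-length Csy4, the group through which it met the rule.

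The falls were led by LINC02542. It gave 3.33, 3.26 and 2.75 CPM with DMSO and 0.975, 0.807 and 1.39 CPM with full-length Csy4, a log2 fold change of -1.55 ± 0.29 (adjusted p = 7.57e-06). The groups did not overlap, and the call held in every alternative run for it. LINC00877 gave 1.64, 1.88 and 2.06 CPM and then 0.5998, 0.740 and 0.756 CPM (-1.39 ± 0.38, adjusted p = 0.00168). LINC01694 gave 5.93, 6.76 and 5.63 CPM and then 3.07, 3.30 and 2.08 CPM (-1.12 ± 0.21, adjusted p = 4.61e-06), with no overlap. Its head-to-head neighbour SLC19A1, the reduced folate carrier, rose by 0.19 ± 0.068 (adjusted p = 0.0161). LINC02609 gave 9.26, 9.20 and 9.41 CPM and then 5.77, 3.97 and 4.66 CPM (-0.96 ± 0.15, adjusted p = 2.04e-07). LINC01033 fell by 0.95 ± 0.18 (adjusted p = 9.22e-06) and LINC00910 by 0.96 ± 0.25 (adjusted p = 0.00109). ARL15, a small GTPase gene head to head with LINC01033 at 10371 bp, fell by 0.40 ± 0.071 (adjusted p = 2.45e-06). LINC00173, at 5.08, 2.69 and 2.34 CPM with DMSO and 0.975, 1.88 and 1.26 CPM with full-length Csy4, had 1 DMSO library well above the other two (adjusted p = 0.00064). LINC00858 fell by 0.96 ± 0.28 (adjusted p = 0.00316), a call lost without DMSO replicate 2 (adjusted p = 0.0899).

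Some better counted members were called on smaller differences. LINC01000 gave 46.4, 42.6 and 42.9 CPM with DMSO and 73.6, 60.2 and 60.5 CPM with full-length Csy4 (log2 fold change 0.55 ± 0.064, adjusted p = 1.18e-11). LINC00342 gave 31.0, 28.9 and 29.8 CPM and then 20.8, 18.96 and 16.8 CPM (-0.67 ± 0.091, adjusted p = 2.5e-09), and LINC01278 gave 30.3, 28.2 and 25.3 CPM and then 20.8, 22.4 and 17.95 CPM (-0.46 ± 0.089, adjusted p = 8.77e-06). In each of these 3 the groups were apart. Among members with 10 CPM or more, 11 of 22 were called. When each library was left out in turn, 24 of the 46 calls were kept every time. The summed fibroblast markers were 59.0 to 60.9 CPM with DMSO and 37.9 to 46.3 CPM with full-length Csy4. The summed markers of the line, mostly VIM, were 356.7 to 360.4 CPM and 378.5 to 388.9 CPM. The part of these markers in the result was not tested.

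**Figure D2:**
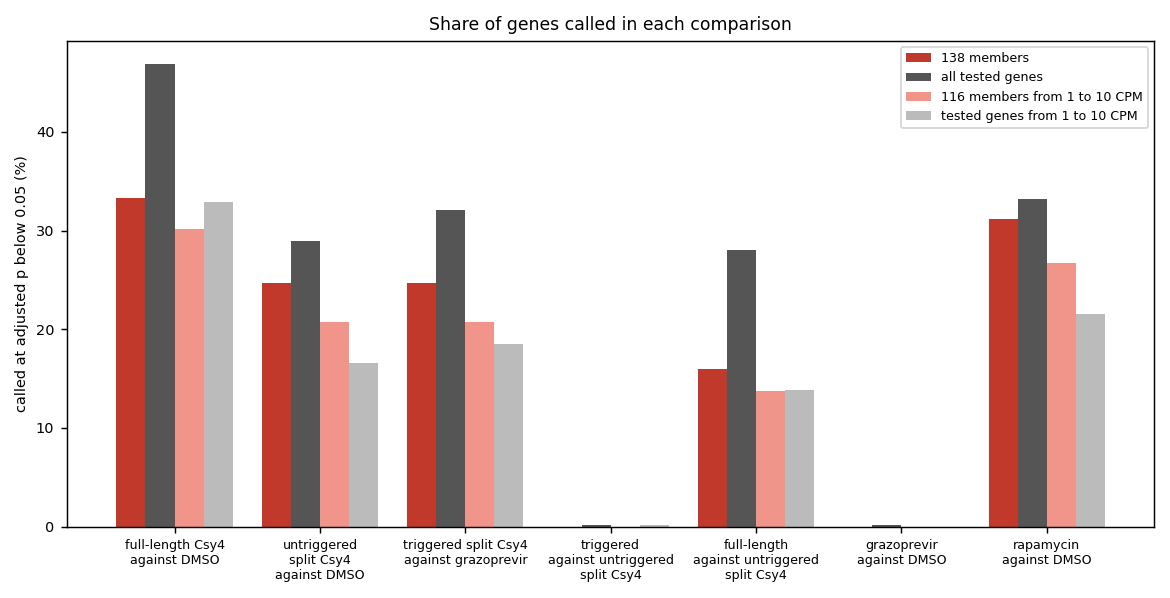
Percent of genes called (adjusted p below 0.05) in the 7 pairwise comparisons, with bars starting at 0 for all 138 members, all tested genes, the 116 members below 10 CPM and the tested genes at 1 to 10 CPM. With full-length Csy4 the members stand at 33.3% and all tested genes at 46.9%, and both comparisons that isolate grazoprevir stand at 0% for members.

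Untriggered split Csy4 was compared with the same DMSO libraries, so its calls and those of full-length Csy4 share controls. Here 10 members were called higher and 24 lower, 24.6% of the members, and 28.9% of all tested genes were called (14.8% higher and 14.1% lower). At 1 to 10 CPM, 16.6% of tested genes and 20.7% of the 116 lower members were called. The median log2 fold change over members was -0.18, against -0.00 over all tested genes, and 97 of 138 members were negative. Without DMSO replicate 1 the members called lower numbered 13, and without SplitCsy4_DMSO replicate 1 they numbered 15. The summed fibroblast markers were 48.1 to 52.7 CPM with untriggered split Csy4, below the DMSO range. Those of the line, mostly VIM, were 406.1 to 427.4 CPM, above the DMSO range. The part of these markers in the result was not tested.

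LINC00641 gave 93.9, 87.5 and 93.1 CPM with untriggered split Csy4, a log2 fold change against DMSO of 1.00 ± 0.057 (adjusted p = 5.67e-25), near its level with the full-length enzyme. LINC02246 gave 6.92, 5.51 and 4.71 CPM (1.43 ± 0.22, adjusted p = 2.81e-07). LINC02086 gave 0.699, 1.84 and 1.13 CPM, with a log2 fold change of 2.84 ± 0.49 (adjusted p = 2.8e-06) and a ratio of summed levels of 7.47 with an exact 95% counting interval of 3.53 to 18.2. For all 3, each split library lay above each DMSO library. LINC02804 gave 6.64, 6.90 and 6.66 CPM (0.69 ± 0.17, adjusted p = 0.00102), and LINC02035 rose by 0.44 ± 0.12 (adjusted p = 0.00429). LINC01588, at 1.82, 2.06 and 3.45 CPM, was called at adjusted p = 0.0221 and lost the call without DMSO replicate 1 (0.141) or SplitCsy4_DMSO replicate 3 (0.28). LINC01061, at 0.41 (adjusted p = 0.0058), lost it without DMSO replicate 2 (0.0629) or SplitCsy4_DMSO replicate 2 (0.0877). LINC00598 gave 0.529, 0.250 and 1.03 CPM with DMSO and 2.17, 1.84 and 1.95 CPM with untriggered split Csy4, the group through which it met the rule.

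Among the falls, LINC02609 gave 6.50, 5.07 and 5.46 CPM (-0.71 ± 0.15, adjusted p = 0.000125), LINC01033 gave 3.29, 3.82 and 4.02 CPM (-0.80 ± 0.18, adjusted p = 0.000296) and LINC01521 fell by 0.70 ± 0.14 (adjusted p = 2.6e-05). For LINC02609 and LINC01033 all libraries lay below every DMSO library. LINC01521 lies 413 bp head to head with PATZ1, a zinc finger transcription factor gene. LINC01315 gave 2.38, 2.19 and 2.40 CPM with DMSO and 0.699, 1.69 and 0.942 CPM, a fall that was not called without SplitCsy4_DMSO replicate 1 (adjusted p = 0.064). LINC02593 gave 3.28, 1.81 and 2.68 CPM and then 1.54, 1.10 and 1.19 CPM (-1.03 ± 0.29, adjusted p = 0.00482), a call lost without DMSO replicate 1 (0.0674). LINC01590 (adjusted p = 0.0154) also lost its call without DMSO replicate 1 (0.212) or SplitCsy4_DMSO replicate 1 (0.162), LINC00858 (adjusted p = 0.0127) without DMSO replicate 2 (0.21) or SplitCsy4_DMSO replicate 1 (0.0629), and LINC00638 (adjusted p = 0.0191) without DMSO replicate 1 (0.0616) or SplitCsy4_DMSO replicate 1 (0.168). In all, 13 of the 34 calls were kept whichever library was left out.

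Triggered split Csy4 was compared with grazoprevir alone, libraries that the comparisons above do not use. With the reassembled enzyme 12 members were called higher and 22 lower, again 24.6%, where 32.1% of all tested genes were called (16.2% higher and 16% lower). The share was 18.5% for tested genes at 1 to 10 CPM and 20.7% for the 116 members below 10 CPM. The median log2 fold change was -0.20 over members and -0.00 over all tested genes, with 97 members negative. Without grazoprevir replicate 1, which stood apart, 13 members were called higher and 21 lower, and without grazoprevir replicate 3 the number called lower was 13. The summed markers of the line, mostly VIM, were 348.2 to 368.3 CPM with grazoprevir and 413.2 to 421.2 CPM with triggered split Csy4. The fibroblast ones were 51.9 to 56.5 CPM and 46.6 to 54.3 CPM. The part of these markers was not tested.

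LINC00641 gave 46.5, 42.6 and 49.5 CPM with grazoprevir and 79.8, 86.8 and 81.0 CPM with triggered split Csy4 (log2 fold change 0.84 ± 0.058, adjusted p = 1.99e-20). LINC02086 gave 0.515, 0.323 and 0.451 CPM and then 1.39, 1.95 and 2.32 CPM (2.13 ± 0.39, adjusted p = 6.28e-06), and LINC01588 gave 0.956, 0.388 and 1.29 CPM and then 1.75, 2.93 and 3.48 CPM (1.63 ± 0.34, adjusted p = 9.84e-05). LINC02246 gave 1.84, 3.36 and 2.00 CPM and then 5.40, 4.39 and 4.10 CPM (0.94 ± 0.23, adjusted p = 0.000735). In all 4 the triggered libraries lay above every grazoprevir library. LINC02815 rose by 0.60 ± 0.15 (adjusted p = 0.00123) and LINC01004 by 0.60 ± 0.16 (adjusted p = 0.0024). LINC01411, at 0.883, 0.259 and 0.451 CPM and then 1.898, 0.975 and 0.888 CPM, lost its call (adjusted p = 0.0293) without grazoprevir replicate 2 (0.161) or 3 (0.0876) or without SplitCsy4_Grazoprevir replicate 1 (0.264). LINC01619 (adjusted p = 0.0274) lost it without grazoprevir replicate 1 (0.0901) or 3 (0.0511) or without SplitCsy4_Grazoprevir replicate 1 (0.233). Its mean was 0.666 ± 0.136 CPM (SD, n = 3) with grazoprevir and 1.48 ± 0.558 CPM with triggered split Csy4. The triggered level was near the 1.56 ± 0.485 CPM with DMSO, so the call rests on a low grazoprevir level.

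LINC01011 fell by 1.40 ± 0.34 (adjusted p = 0.000748), from 2.57, 2.26 and 2.64 CPM with grazoprevir to 1.02, 1.06 and 0.751 CPM, with no overlap. LINC02609 gave 9.78, 11.4 and 8.69 CPM and then 5.99, 5.53 and 6.49 CPM (-0.72 ± 0.15, adjusted p = 7.6e-05). LINC03011 was called (-1.13 ± 0.36, adjusted p = 0.0102) but not without grazoprevir replicate 3 (0.0728), and LINC01424 likewise (-0.76 ± 0.25, adjusted p = 0.0144, and 0.137 without it). LINC01424 lies 421 bp head to head with UBE2G2, which encodes a ubiquitin-conjugating enzyme of protein quality control at the endoplasmic reticulum. LINC01410 (adjusted p = 0.019) lost its call without grazoprevir replicate 3 (0.108) or SplitCsy4_Grazoprevir replicate 1 (0.176). LINC00173 (adjusted p = 0.0257) and LINC01315 (adjusted p = 0.0485) lost theirs without any of 4 and 3 libraries in turn: without grazoprevir replicate 3 they stood at 0.0718 and 0.381, without SplitCsy4_Grazoprevir replicate 2 at 0.113 and 0.172 and without SplitCsy4_Grazoprevir replicate 3 at 0.126 and 0.116, and LINC00173 at 0.0747 without grazoprevir replicate 1. LINC00896, which met the rule through grazoprevir, gave 1.47, 1.23 and 1.93 CPM there and 0.146, 0.731 and 1.02 CPM with triggered split Csy4. Of the 34 calls, 15 were kept whichever library was left out.

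Grazoprevir itself moved no member past the threshold. Against DMSO 0 members were called, where 0.2% of all tested genes were called, and 9 members had an unadjusted p below 0.05. A share of 0.05 of genes would have such a p if no gene differed, here and in the tests that follow. The smallest adjusted p was 0.223, of LINC01619, and DESeq2 also called 0 members. Triggered against untriggered split Csy4 gave 0 called members by edgeR and by DESeq2, with 0.2% of all tested genes called and 12 members at an unadjusted p below 0.05. LINC00648 had the smallest adjusted p there, 0.202. The interaction of grazoprevir with split Csy4, which tests whether the drug's difference is the same in both kinds of cells, gave 0 members by both tools, with 0.351% of tested genes called (0.0791% at 1 to 10 CPM), 11 members at an unadjusted p below 0.05 and a smallest adjusted p of 0.148, again of LINC00648. Without grazoprevir replicate 1, LINC00648 was called lower in the interaction (log2 -0.74, adjusted p = 0.0392), a member named after its values were seen. These p-values do not show that the members were alike with and without the drug. The median SE of a member's log2 fold change was 0.22 for grazoprevir against DMSO and 0.24 for triggered against untriggered split Csy4.

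Full-length against untriggered split Csy4 compares 2 transfected groups, both given DMSO. Here 17 members were called higher with the full-length enzyme and 5 lower, 15.9% of the members, against 28% of all tested genes (13.1% higher and 14.9% lower). The share was 13.8% for tested genes at 1 to 10 CPM and 13.8% for the 116 members below 10 CPM. Library-size scaling gave 21 higher and 3 lower, with the median of all tested genes moved to 0.07. The number called higher fell to 10 without wtCsy4 replicate 1 or SplitCsy4_DMSO replicate 1, and to 9 without wtCsy4 replicate 2, SplitCsy4_DMSO replicate 2 or SplitCsy4_DMSO replicate 3. The number called lower was 3 without wtCsy4 replicate 2 or SplitCsy4_DMSO replicate 1. The fibroblast and line markers given above also differed between these groups, and their part was not tested.

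The groups lay farthest apart for LINC02086, at 7.95, 7.46 and 7.69 CPM with full-length Csy4 against 0.699, 1.84 and 1.13 CPM. LINC01411 stood at 2.10, 2.49 and 2.27 CPM against 0.769, 1.18 and 0.754 CPM. Both met the rule through the full-length group, so no p is given. LINC00938 gave 12.15, 9.55 and 12.03 CPM against 8.53, 6.61 and 6.53 CPM (log2 fold change 0.64 ± 0.14, adjusted p = 0.000152), and no alternative ended its call. It lies 1785 bp head to head with ARID2, which encodes a subunit of a chromatin remodelling complex. LINC01963 gave 5.47, 6.25 and 7.69 CPM against 3.57, 3.67 and 3.64 CPM (0.84 ± 0.19, adjusted p = 0.000217). LINC02542 gave 0.975, 0.807 and 1.39 CPM against 2.66, 2.57 and 2.57 CPM (-1.28 ± 0.31, adjusted p = 0.000627), with untriggered split Csy4 close to the DMSO level of 2.75 to 3.33 CPM.

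LINC01694 was lower with full-length Csy4 (-0.74 ± 0.22, adjusted p = 0.0065), a call lost without wtCsy4 replicate 3 (0.083), and LINC00997 was too (adjusted p = 0.0077), lost without SplitCsy4_DMSO replicate 1 (0.0518). LINC01315 (adjusted p = 0.0217) and LINC01590 (adjusted p = 0.0304) were called higher with the full-length enzyme. Without wtCsy4 replicate 1 they stood at 0.104 and 0.111, without wtCsy4 replicate 2 at 0.0522 and 0.0508, and without SplitCsy4_DMSO replicate 1 at 0.145 and 0.245, and LINC01315 stood at 0.0939 without SplitCsy4_DMSO replicate 3. LINC01551 (adjusted p = 0.0224) and LINC03009 (adjusted p = 0.0488) each lost their call without 4 and 5 libraries in turn, as far as 0.109 for LINC01551 without SplitCsy4_DMSO replicate 3 and 0.225 for LINC03009 without wtCsy4 replicate 1. LINC00294 (adjusted p = 0.0347) was called lower and reached 0.181 without SplitCsy4_DMSO replicate 1. In this comparison 6 of 22 calls were kept whichever library was left out.

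**Figure D3:**
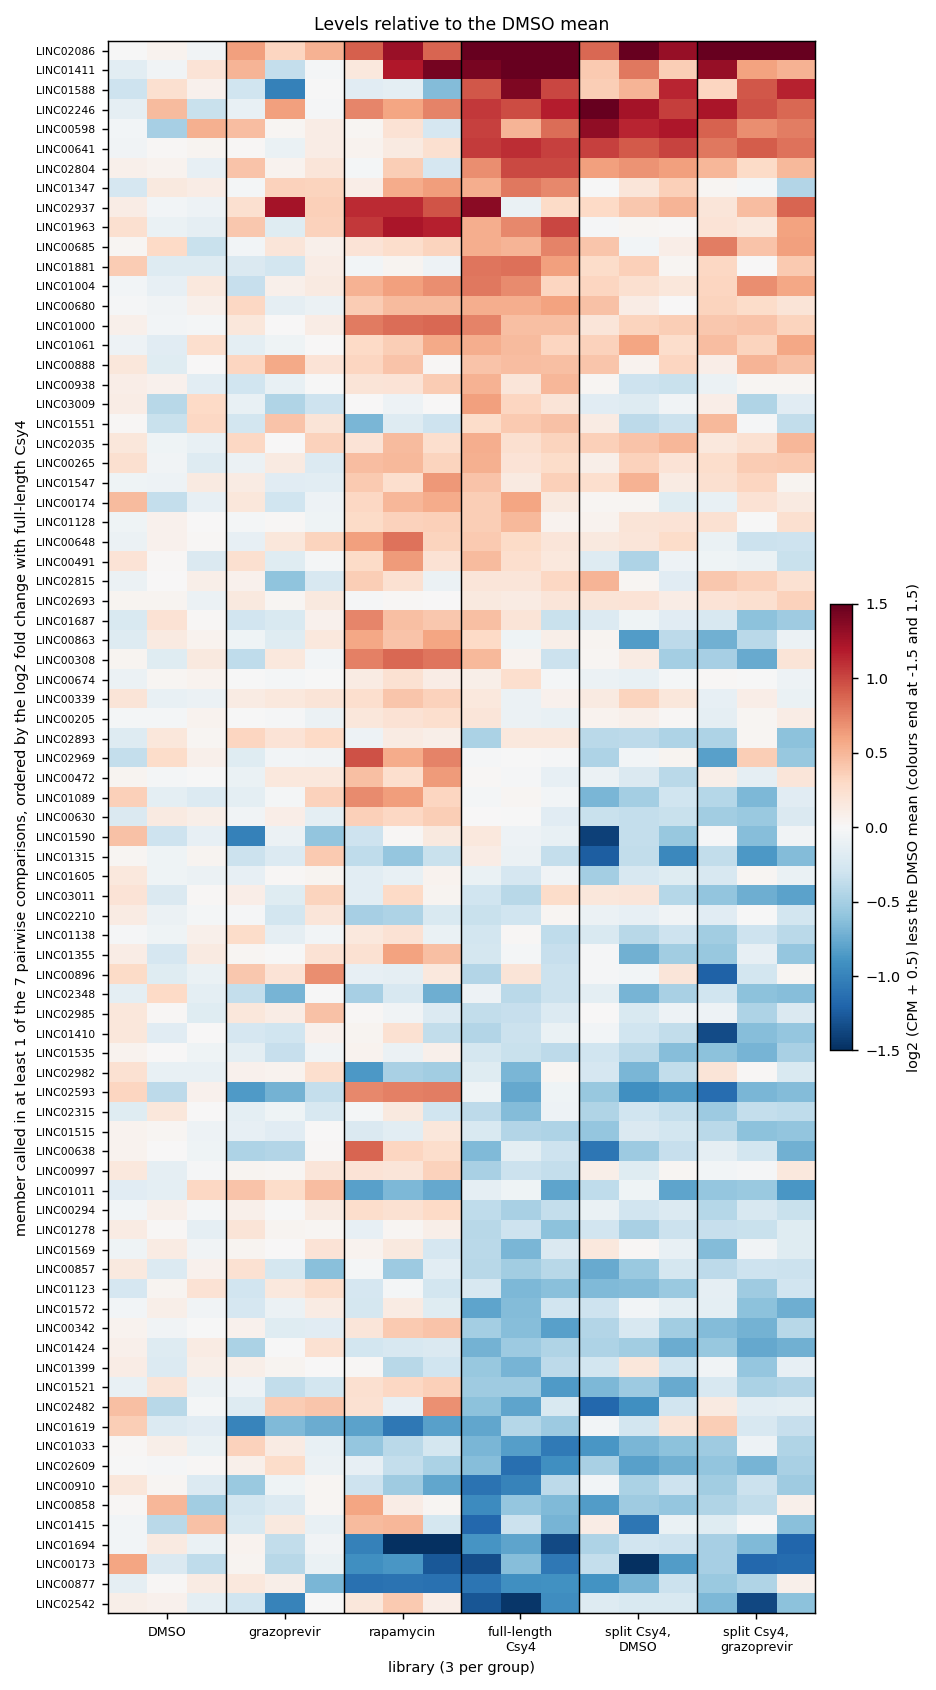
Rows are the 80 members called in at least 1 of the 7 pairwise comparisons and columns are the 18 libraries by group, with colour the log2 of CPM plus 0.5 less the DMSO mean (range -1.5 to 1.5). The 7 members called higher and the 9 called lower in each of the 3 comparisons against untransfected cells change colour in the transfected libraries.

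Across the 3 comparisons of transfected with untransfected cells, 7 members were called higher each time (LINC00641, LINC01000, LINC01061, LINC01588, LINC02086, LINC02246 and LINC02693) and 9 lower each time (LINC00173, LINC00294, LINC00342, LINC01033, LINC01278, LINC01424, LINC01515, LINC01535 and LINC02609). Over all tested genes 8.49% were called higher and 8.67% lower in all 3. LINC02086 is listed as a description only, since the rule drew on its full-length libraries. Members were put in these sets after their values were seen, and the comparisons of full-length and untriggered split Csy4 share their DMSO libraries. LINC01000 gave log2 fold changes of 0.55, 0.30 and 0.30 in the full-length, untriggered and triggered comparisons. LINC01278 gave -0.46, -0.38 and -0.38, LINC00342 gave -0.67, -0.41 and -0.50, and LINC02609 gave -0.96, -0.71 and -0.72. These 4 kept all 3 calls in every alternative run. LINC02693, the member with the smallest differences of the set, gave 0.15, 0.17 and 0.16 and lost 1 or more calls without DMSO replicate 3 (adjusted p = 0.162 and 0.121), wtCsy4 replicate 3 (0.0855), SplitCsy4_DMSO replicate 1 (0.0551) or 2 (0.0582), grazoprevir replicate 2 (0.136) or SplitCsy4_Grazoprevir replicate 3 (0.179). LINC00294 gave -0.42, -0.20 and -0.41, and its call with untriggered split Csy4 (adjusted p = 0.0479) ended in 9 of 12 alternatives, up to 0.203 without SplitCsy4_DMSO replicate 2. LINC01033 lost its call with triggered split Csy4 (adjusted p = 0.0176) without grazoprevir replicate 1 (0.128) or without SplitCsy4_Grazoprevir replicate 1 (0.106) or 3 (0.0798), and LINC00173 lost its call with untriggered split Csy4 (adjusted p = 0.00366) without DMSO replicate 1 (0.133) or SplitCsy4_DMSO replicate 2 (0.0537). LINC01424, LINC01515 and LINC01535 each lost a call in all 3 comparisons: without DMSO replicate 1 they stood at 0.0563, 0.0557 and 0.0793 with full-length Csy4, without SplitCsy4_DMSO replicate 3 at 0.11, 0.0609 and 0.0669 with untriggered split Csy4, and without grazoprevir replicate 3 at 0.137, 0.0691 and 0.0811 with triggered split Csy4. Among these 3 comparisons LINC00648 was the only member called in both directions, as were 1.2% of all tested genes: higher with full-length Csy4 (0.30 ± 0.13, adjusted p = 0.0482, and 0.176 without DMSO replicate 1) and lower with triggered split Csy4 against grazoprevir (-0.41 ± 0.14, adjusted p = 0.0175, and 0.166 without grazoprevir replicate 3).

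Start regions are shown for 4 members of the first set and 3 of the second. Each set was made by picking members called in the same direction. RefSeq windows (GRCh38.p14) run from 250 bases before to 50 bases after an annotated start, and 101 members had 132 of them. Capitals mark a match, on either strand, to TATAAA (the TATA box), CCAAT (the CCAAT box), CACGTG (an E-box), TGACTCA (an AP-1 site) or TGACGTCA (a cyclic AMP response element). CACGTG and TGACGTCA read the same on both strands. The windows are LINC00641 at chr14:21206851-21207150 (minus strand), LINC02086 at chr17:48642377-48642676 (plus), LINC01588 at chr14:49993085-49993384 (minus), LINC01061 at chr4:119410611-119410910 (minus), LINC02609 at chr1:90836112-90836411 (minus), LINC01278 at chrX:63561046-63561345 (minus) and LINC00294 at chr11:33075900-33076199 (plus).
LINC00641: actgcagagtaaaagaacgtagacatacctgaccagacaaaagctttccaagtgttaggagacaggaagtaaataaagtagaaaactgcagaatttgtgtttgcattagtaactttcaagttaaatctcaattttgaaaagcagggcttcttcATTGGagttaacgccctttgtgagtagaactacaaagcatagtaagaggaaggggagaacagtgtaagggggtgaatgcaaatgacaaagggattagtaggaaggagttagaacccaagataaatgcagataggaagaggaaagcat
LINC02086: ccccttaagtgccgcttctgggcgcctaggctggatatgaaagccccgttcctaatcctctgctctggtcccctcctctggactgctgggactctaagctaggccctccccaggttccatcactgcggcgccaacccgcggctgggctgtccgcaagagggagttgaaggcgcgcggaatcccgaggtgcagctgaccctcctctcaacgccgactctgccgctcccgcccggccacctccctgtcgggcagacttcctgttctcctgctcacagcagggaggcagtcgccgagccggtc
LINC01588: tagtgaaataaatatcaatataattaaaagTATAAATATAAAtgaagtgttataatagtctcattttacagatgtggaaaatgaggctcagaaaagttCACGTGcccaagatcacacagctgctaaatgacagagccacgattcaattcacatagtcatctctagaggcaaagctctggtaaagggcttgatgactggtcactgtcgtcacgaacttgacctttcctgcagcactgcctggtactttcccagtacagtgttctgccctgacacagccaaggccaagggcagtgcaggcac
LINC01061: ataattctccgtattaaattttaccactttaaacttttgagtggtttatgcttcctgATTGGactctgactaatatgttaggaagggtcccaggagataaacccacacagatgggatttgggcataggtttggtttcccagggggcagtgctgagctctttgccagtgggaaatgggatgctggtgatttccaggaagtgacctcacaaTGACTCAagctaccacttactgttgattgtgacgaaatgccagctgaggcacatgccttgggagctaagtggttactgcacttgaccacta
LINC02609: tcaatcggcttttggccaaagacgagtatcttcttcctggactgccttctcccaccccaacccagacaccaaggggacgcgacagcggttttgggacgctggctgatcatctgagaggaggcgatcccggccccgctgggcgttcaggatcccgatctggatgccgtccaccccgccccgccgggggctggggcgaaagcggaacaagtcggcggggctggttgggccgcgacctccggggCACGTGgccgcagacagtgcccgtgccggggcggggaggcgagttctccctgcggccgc
LINC01278: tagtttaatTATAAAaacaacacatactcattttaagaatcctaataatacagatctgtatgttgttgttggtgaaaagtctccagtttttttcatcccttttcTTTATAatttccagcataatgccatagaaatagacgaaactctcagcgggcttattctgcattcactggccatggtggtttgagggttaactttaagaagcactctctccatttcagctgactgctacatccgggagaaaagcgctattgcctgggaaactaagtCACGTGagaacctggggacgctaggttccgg
LINC00294: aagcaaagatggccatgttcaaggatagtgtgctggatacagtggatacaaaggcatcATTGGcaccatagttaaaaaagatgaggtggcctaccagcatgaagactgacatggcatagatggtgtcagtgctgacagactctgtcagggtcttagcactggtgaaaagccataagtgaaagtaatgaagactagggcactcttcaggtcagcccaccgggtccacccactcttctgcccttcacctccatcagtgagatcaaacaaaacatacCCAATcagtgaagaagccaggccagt

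No motif was held by every window of a set. The LINC00641 window held CCAAT on the opposite strand, LINC01588 held TATAAA at 2 places and CACGTG, LINC01061 held TGACTCA and a CCAAT on the opposite strand, and the LINC02086 window, with 66.0% G and C, held none of the 5. In the second set LINC02609 held CACGTG, LINC01278 held CACGTG and TATAAA, and LINC00294 held CCAAT on both strands. Over all 35116 RefSeq windows of this length, CCAAT occurred in 34.6%, TATAAA in 11.5%, CACGTG in 7.26%, TGACTCA in 4.95% and TGACGTCA in 1.85%. Over the 132 windows of members these shares were 47.7%, 14.4%, 9.85%, 4.55% and 5.30%. Windows of 1 gene can overlap, so they are not independent, and a match is letters in a window and not a bound site.

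Rapamycin against DMSO, in untransfected cells, gave the most calls in 1 direction. With rapamycin 33 members were called higher and 10 lower, 31.2% of the members, where 33.2% of all tested genes were called (17.2% higher and 16% lower). At 1 to 10 CPM 21.5% of tested genes and 26.7% of the 116 lower members were called. The median log2 fold change was 0.09 over members and 0.02 over all tested genes. This comparison uses the same DMSO libraries as the full-length and untriggered ones. In all, 18 of the 43 calls were kept whichever library was left out.

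LINC01000 gave 46.4, 42.6 and 42.9 CPM with DMSO and 75.8, 79.1 and 80.2 CPM with rapamycin (log2 fold change 0.83 ± 0.063, adjusted p = 5.11e-19). LINC01963 gave 4.34, 3.32 and 3.23 CPM and then 8.08, 9.07 and 8.72 CPM (1.24 ± 0.18, adjusted p = 1.64e-08). LINC00308 gave 2.33, 1.94 and 2.54 CPM and then 4.15, 4.50 and 4.33 CPM (0.93 ± 0.25, adjusted p = 0.00213). In these 3 all rapamycin libraries lay well above all DMSO libraries. LINC02937 rose by 1.36 ± 0.34 (adjusted p = 0.00106), from 0.962 to 1.16 CPM with DMSO to 2.45 to 2.85 CPM. LINC02086 rose too, to 0.728, 1.13 and 0.710 CPM (2.35 ± 0.52, adjusted p = 0.00018), a ratio of summed levels of 5.30 with a counting interval of 2.44 to 13.2. With grazoprevir alone, where it was not called (adjusted p = 0.502), that ratio was 2.63 with an interval of 1.1 to 6.95. All these ratios rest on the same 8 DMSO counts. LINC00205, one of the most abundant members, went from 52.3, 52.5 and 55.3 CPM to 60.2, 62.2 and 63.5 CPM (0.22 ± 0.062, adjusted p = 0.004), and its head-to-head neighbour POFUT2 at 157 bp, a protein O-fucosyltransferase gene, had a log2 fold change of 0.01. LINC02593 (0.82 ± 0.25, adjusted p = 0.00656) lost its call without DMSO replicate 2 (0.0734), LINC02246 (0.77 ± 0.24, adjusted p = 0.00759) without DMSO replicate 1 (0.056) or 3 (0.0686), LINC02969 (0.97 ± 0.35, adjusted p = 0.0242) without DMSO replicate 1 (0.149) or rapamycin replicate A (0.0968), and LINC00472 (0.48 ± 0.14, adjusted p = 0.00565) without rapamycin replicate C (0.08).

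LINC01694 fell by 1.66 ± 0.22 (adjusted p = 3.17e-09), from 5.93, 6.76 and 5.63 CPM to 2.77, 1.52 and 1.55 CPM. LINC00877 fell by 1.64 ± 0.39 (adjusted p = 0.000525), from 1.64, 1.88 and 2.06 CPM to 0.583, 0.596 and 0.581 CPM, and LINC00173 by 1.35 ± 0.33 (adjusted p = 0.000724), from 5.08, 2.69 and 2.34 CPM to 1.46, 1.52 and 1.03 CPM. In each the groups were apart, and these 3 members had also been called lower with full-length Csy4 against the same DMSO libraries. LINC01619 fell by 1.41 ± 0.41 (adjusted p = 0.00447), a call lost without DMSO replicate 1 (0.0625), and LINC01011 by 1.06 ± 0.35 (adjusted p = 0.0141), lost without DMSO replicate 3 (0.0987). LINC02982 (adjusted p = 0.0463) and LINC02348 (adjusted p = 0.0483) lost their calls in several alternatives, up to 0.195 without DMSO replicate 1 and 0.296 without DMSO replicate 2, and LINC00910 (adjusted p = 0.0328) reached 0.164 without rapamycin replicate C. The summed fibroblast markers were 38.7 to 39.8 CPM with rapamycin against 59.0 to 60.9 CPM with DMSO, and the epithelial ones 7.49 to 8.41 CPM against 12.9 to 13.3 CPM, and their part in these results was not tested.

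Set side by side, 8 members were called higher with rapamycin and lower with untriggered split Csy4, both against the shared DMSO libraries: LINC00294, LINC00342, LINC00630, LINC00638, LINC01089, LINC01355, LINC01521 and LINC02593. Over all tested genes the share with this pair of calls was 2.44%. LINC00342 gave 31.0, 28.9 and 29.8 CPM with DMSO, 33.9, 39.3 and 40.3 CPM with rapamycin (0.34 ± 0.083, adjusted p = 0.000706) and 22.0, 25.1 and 20.7 CPM with untriggered split Csy4 (-0.41 ± 0.089, adjusted p = 0.000196). The rapamycin libraries lay above and the split libraries below all DMSO libraries. LINC01089, whose span overlaps SETD1B, a histone methyltransferase gene, was called at 0.57 with rapamycin (adjusted p = 0.00921) and at -0.59 with untriggered split Csy4 (adjusted p = 0.0192). Those calls were lost without DMSO replicate 2 (0.0628), DMSO replicate 3 (0.07) or rapamycin replicate A (0.0595) and without DMSO replicate 1 (0.282) or SplitCsy4_DMSO replicate 1 (0.101). Of the others, LINC00630 lost its calls without DMSO replicate 1 (0.0905, rapamycin) and DMSO replicate 2 (0.0769, split), LINC01355 without DMSO replicate 2 (0.12, rapamycin) and SplitCsy4_DMSO replicate 2 (0.237, split), LINC00638 without rapamycin replicate A (0.356) and LINC01521 without DMSO replicate 1 (0.18, rapamycin). Over all 7 pairwise comparisons 80 members were called at least once and 58 never, where 68.4% of all tested genes were called at least once. The latter include LINC00662, LINC00665, at 16.5 ± 1.64 CPM (SD, n = 3) with DMSO, LINC00467, at 13.5 ± 0.88 CPM, LINC00461, at 2.69 ± 0.70 CPM, LINC00963 and LINC01116.

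Since some noncoding RNAs act on the gene beside them, each member was set beside its nearest protein-coding gene, tested for 115 members. With full-length Csy4 25 pairs had both genes called, 17 of them in the same direction, and with rapamycin 18 pairs, 14 of them in the same direction. With untriggered split Csy4 12 pairs had both called and 7 agreed in direction, with triggered split Csy4 against grazoprevir 12 and 6, and with full-length against untriggered split Csy4 10 and 7. Of the 115 neighbours themselves, 63 were called with full-length Csy4, where 46.9% of all tested genes were, and 53 with rapamycin, where 33.2% were. With untriggered split Csy4, triggered split Csy4 against grazoprevir and full-length against untriggered split Csy4, the neighbours called numbered 43, 39 and 39. The shares of all tested genes called there were 28.9%, 32.1% and 28%. The 2 differences correlated across pairs at r = 0.15 (Spearman 0.17) with full-length Csy4 and r = 0.25 (0.20) with rapamycin, and at r = 0.10, -0.05 and 0.16 in the other 3. Across the 23 pairs within 5 kb r was -0.13 with full-length Csy4 and 0.64 (Spearman 0.34) with rapamycin. In the other 3 comparisons it was 0.08, -0.08 and 0.22. These are descriptions across genes of the same libraries, and close pairs may share reads. LINC02593 lies 4231 bp head to head with SAMD11, and SAMD11 rose with rapamycin by 1.19 ± 0.099 (adjusted p = 1.04e-16). LINC01411 lies 197443 bp upstream of MSX2, a homeobox transcription factor gene. MSX2 rose by 1.33 ± 0.069 with full-length Csy4 (adjusted p = 1.44e-28) and by 0.59 ± 0.072 with rapamycin (adjusted p = 2.04e-10). LINC01411 met the rule through full-length Csy4, so its pair is counted above for that comparison but supports nothing there. LINC01000 lies 10631 bp from GARIN1A, which rose by 3.14 ± 0.42 with full-length Csy4 (adjusted p = 1.12e-09) and by 3.23 ± 0.41 with rapamycin (adjusted p = 7.91e-10). GARIN1A was low, at a mean of 1.52 CPM. Other named pairs went in opposite directions with full-length Csy4, as LINC00641 with HNRNPC and LINC01694 with SLC19A1 did.

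Well-studied long noncoding RNAs with other kinds of symbol gave a mixed picture as well. Of 26 listed, 21 were tested. Called higher and lower were 5 and 3 with full-length Csy4 against DMSO, 1 and 8 with untriggered split Csy4, 1 and 7 with triggered split Csy4 against grazoprevir, 6 and 3 with full-length against untriggered split Csy4, 4 and 2 with rapamycin and 0 in the comparisons that isolate grazoprevir. The shares of all tested genes called in these 5 comparisons were 46.9%, 28.9%, 32.1%, 28% and 33.2%. The list's median log2 fold changes in the first 3 comparisons were -0.03, -0.16 and -0.16, against -0.01, -0.00 and -0.00 over all tested genes. OIP5-AS1, a conserved and mostly cytoplasmic RNA, gave 178 ± 3.88 CPM with DMSO (SD, n = 3), 112 ± 4.04 CPM with full-length Csy4 and 131 ± 3.23 CPM with untriggered split Csy4 (log2 fold changes -0.68 ± 0.041, adjusted p = 1.75e-24, and -0.44 ± 0.041, adjusted p = 1.2e-14). It was higher with rapamycin (199 ± 5.67 CPM, adjusted p = 0.000864), and reads of the gene it is antisense to may be among its counts. NORAD, which binds Pumilio proteins, gave 267 ± 4.44 CPM with DMSO and 318 ± 0.247 CPM with full-length Csy4 (0.25 ± 0.035, adjusted p = 5.39e-09). TUG1 fell with untriggered split Csy4 (-0.26 ± 0.036, adjusted p = 7.05e-09) and rose with rapamycin.

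A second list held long noncoding RNAs linked to p53, of which 7 of 9 were tested. With full-length Csy4 5 were called higher and 0 lower, with untriggered split Csy4 0, with triggered split Csy4 1 higher, with full-length against untriggered split Csy4 3 higher, and with rapamycin 5 higher and 1 lower. Over all tested genes 22.9% were called higher with full-length Csy4, 14.8% with untriggered and 16.2% with triggered split Csy4, 13.1% with full-length against untriggered split Csy4 and 17.2% with rapamycin. PURPL, a p53-induced RNA, gave 5.90 ± 1.01 CPM with DMSO and 15.3 ± 1.82 CPM with full-length Csy4 (log2 fold change 1.38 ± 0.15, adjusted p = 3.88e-12). PINCR, also p53-induced, gave 0.857 ± 0.33 CPM and 3.54 ± 0.052 CPM (2.07 ± 0.33, adjusted p = 2.03e-07). MIR34AHG, the host transcript of the microRNA miR-34a, rose by 0.54 ± 0.12 with full-length Csy4 (adjusted p = 0.000165) and by 1.07 ± 0.12 with rapamycin (adjusted p = 6.27e-12), and LINC-PINT fell with rapamycin (-0.54 ± 0.20, adjusted p = 0.0271). HEK-293T cells carry a viral protein that binds p53, which is background and not a measurement here.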

How the data were processed

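Values are the deposited raw counts, 1 row per gene symbol. The labels name TRIzol for the RNA, oligo(dT) beads for the poly(A) selection and random primers for the cDNA. The submitters' processing notes list the hg38 genome and the tools HTSeq 0.6.1, DESeq2 1.44.0, HISAT2 2.2.1 and cutadapt 1.9.1; the annotation and the strand setting of the counting are not given in the sources used here. The 3 rapamycin columns share 1 header name, so they are called replicates A, B and C.

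Counts were fitted with edgeR 4.0.16 (R 4.3.3): genes kept by filterByExpr, TMM factors, 1 model of 6 group means over all 18 libraries, robust quasi-likelihood tests and Benjamini-Hochberg adjustment over 17966 genes, with calls at adjusted p below 0.05. CPM by library, group and marker list use TMM factors, while the rule for members and mean levels over all 18 libraries use library totals alone. SEs are the absolute log2 fold change over the square root of F. The deposited counts behind a library total 12362101 to 19095828, and counting intervals (exact, from the binomial distribution) cover counting error only. The labels name no molecular identifiers. The same fit was also run on simulated counts, and that outcome is not given here.

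Members and lists were chosen with earlier results of these data known. Genes named are the 8 highest members, those at 1 CPM in at most 3 groups, those at the threshold, listed members with known roles, up to 8 rises and 8 falls per comparison with groups apart, their neighbours, and up to 4 genes a list and comparison. Members named as sets that moved together, and LINC00648, were named after their values were seen. Alternatives were other scaling (library size, median-of-ratios factors), no filter, a model restricted to the groups in question, DESeq2 1.42.0, a replicate block and leaving out each library. A listed marker gene is not reported here.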

Additional observations from a re-analysis of the deposited data

How the results depend on the processing

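Where a member was called, its fold change did not reverse under any alternative run for it. Fold changes that were not called were not checked for this. Of the member calls in the 5 comparisons with calls, DESeq2 kept 42 of 46 (full-length Csy4 against DMSO), 28 of 34 (untriggered split), 32 of 34 (triggered against grazoprevir), 16 of 22 (full-length against untriggered split) and 34 of 43 (rapamycin). Members called lower with full-length against untriggered split Csy4 numbered 5, and 3 with library-size scaling or DESeq2, and those lower with rapamycin 10, and 6 with no filter on low counts, where more genes are tested. Genes called with grazoprevir against DMSO numbered 36, and 83 with DESeq2, 7 with only the groups compared and 126 with the replicate block. Correlations of same-numbered libraries ran from -0.235 to 0.237, with no pair of groups above 0.1 for all 3 numbers, so the numbers were not used as pairs, and the block kept 46 of 46, 30 of 34, 32 of 34 and 21 of 22 member calls in the first 4 of these comparisons; rapamycin columns carry no number. Leaving out each library in turn gave 13 to 19 members lower with untriggered split Csy4, 13 to 23 lower with triggered split Csy4, 9 to 16 higher and 3 to 6 lower with full-length against untriggered split Csy4, and 0 to 1 lower in the interaction. Over all genes it gave 22 to 29 called with triggered against untriggered split Csy4, 3 to 112 with grazoprevir (112 without grazoprevir replicate 1) and 14 to 141 in the interaction (141 without the same library). The causes were not tested. Depth limits the 47 members below 2 CPM, whose replicates varied by a median of 28.9%.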
